A study of Mus musculus with 4 samples.

Results

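Toll-like receptors are the membrane sensors with which microglia detect microbial and damage-derived molecules. Expression was followed here for 10 genes, selected by symbol as 8 Toll-like receptors (Tlr1, Tlr2, Tlr3, Tlr4, Tlr6, Tlr7, Tlr9 and Tlr13), the co-receptor Cd14 and the adaptor Myd88, out of 49993 genes in the count tables. The tables came from bulk RNA-seq of CD11b+ microglia, which magnetic beads had captured from brain tissue of APP/PS1+ mice aged 10 months. APP/PS1 is a transgene pair that leads to amyloid deposition in the brain. In the AD group (2 libraries) the asrij gene was intact (asrij+/+). In the AD/KO group (2 libraries) it was deleted constitutively (asrij-/-), so the deletion was not restricted to microglia. Both groups carried the transgenes. The labels give neither the promoter of the transgenes, nor the sex of the animals, nor how many animals made up a library, so p-values measure the spread between these libraries, which may be technical. CD11b is also carried by neutrophils, monocytes and other macrophages.

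In this receptor family, the surface members Tlr1, Tlr2, Tlr4 and Tlr6 recognise bacterial lipids and lipoproteins, and the endosomal members Tlr3, Tlr7, Tlr9 and Tlr13 recognise nucleic acids. Cd14 binds lipopolysaccharide and hands it to Tlr4. Apart from Tlr3, which signals through another adaptor (Ticam1), the receptors recruit Myd88, which assembles Irak kinases and leads to NF-kB activation and cytokine transcription. In microglia of amyloid models, Tlr2, Tlr4 and Cd14 are known as sensors of aggregated amyloid.

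The libraries held 13102622 to 19810076 counts, and the 10 genes had between 140 and 3815 reads each per library, so counting error was small beside the spread between libraries. Ociad1, the mouse gene for Asrij, was lower in both AD/KO libraries (38.9 and 32.1 CPM, counts scaled to the effective size of each library) than in the AD libraries (50.2 and 63.4 CPM), but its transcript was not lost. AD and AD/KO therefore mean the libraries as labelled. One AD/KO library stood apart. The 12 microglia marker genes summed to 19403 CPM and 13240 CPM in AD replicates 1 and 2. They summed to 19793 CPM in AD/KO replicate 1 and 5723 CPM in AD/KO replicate 2, with all 12 lowest in the last. Of the 12, 2 were lower in both AD/KO libraries, against 21.7% of all genes tested. Summed neuron markers (10 genes) ran from 441 to 1832 CPM in AD and from 2129 to 5724 CPM in AD/KO, with 3 genes higher in both AD/KO libraries. Without Meg3, the most abundant of them, the neuron sums overlapped (197 and 736 CPM in AD, 559 and 1715 CPM in AD/KO). Astrocyte markers (8 genes) from 1927 to 4565 CPM and from 4734 to 12109 CPM, with 7 genes higher in both AD/KO libraries. Oligodendrocyte markers (8 genes) ran from 1650 to 2648 CPM and from 3950 to 8629 CPM, with 4 such genes. Of all genes tested, 20.3% were higher in both AD/KO libraries. AD replicate 2 stood apart in another way: leaving out Csf3r, which microglia also express, 11 of 11 neutrophil markers and 8 of 8 monocyte markers were highest there. The neutrophil sum was 4552 CPM in that library, 336 CPM in AD replicate 1, and 468 CPM and 529 CPM in the AD/KO libraries. Monocyte markers summed to 127 and 499 CPM in AD and 71.8 and 107 CPM in AD/KO. Border-associated macrophage markers summed to 134 and 102 CPM in AD, 69.7 CPM in AD/KO replicate 1 and less in AD/KO replicate 2. In each list 6 of 8 genes were lower in both AD/KO libraries, against 21.7% of all genes tested. The marker lists were chosen with earlier results of these data known, so such counts are a description only. B cell markers (5 of 6 with reads, Ighm at 0) summed to 6.19 to 14.5 CPM, T and NK cell markers (7 of 8, Trac at 0) to 1.31 to 5.35 CPM, dendritic cell markers to 32.7 to 52.9 CPM and endothelial and mural markers to 60.2 to 111 CPM. AD replicate 2 had 1391 reads of Xist, against 6, 15 and 3 in the others in the order above, while the 4 Y-linked genes Ddx3y, Kdm5d, Uty and Eif2s3y had reads in all 4 libraries.

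All 10 genes had a lower mean level in the libraries labelled AD/KO, but none of the differences passed the test. The fitted log2 fold changes ran from −1.04 for Tlr2 to −0.31 for Cd14, with a median of −0.69 over the 10 genes, against −0.05 over all 21439 genes tested. Adjusted p-values from edgeR's quasi-likelihood fit ran from 0.680 to 0.869, and 0 of 10 genes passed at 0.05, as did 0 of all genes tested (0%). At an unadjusted p under 0.05 there were also 0 of 10, where all genes tested gave 5% (2.3% lower in AD/KO). Under DESeq2's own test 0 of 10 passed as well, against 0.42% of all genes. A lower fitted level was shared by 52.8% of all genes tested, and only 1 of the 10 genes, Tlr2, had both AD/KO libraries below both AD libraries, which held for 21.7% of all genes tested. None had both above (20.3% of all genes), so the groups were apart for 1 of 10 genes against 42% of all genes. With the replicate number as a block, which the labels do not tie to shared animals, 4 of 10 passed, all lower, where all genes gave 20.2% in either direction and 6.79% lower.

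The 4 libraries fell in nearly the same order for each gene. AD/KO replicate 2 was lowest for 10 of 10 genes, AD replicate 1 was highest for 8, and AD/KO replicate 1 was highest for the other 2 (Cd14 and Myd88). AD/KO replicate 1 lay within the range of the AD libraries for 7 genes. The microglia markers were lowest in the same AD/KO library. In RNA from a sorted population, a smaller proportion of microglia and less RNA per microglial cell cannot be told apart. Without AD/KO replicate 2 the median log2 fold change of the 10 genes was −0.10 and Tlr9, Cd14 and Myd88 were higher in AD/KO (0.28, 0.41 and 0.11). Without AD/KO replicate 1 the median was −1.71.

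**Figure D1:**
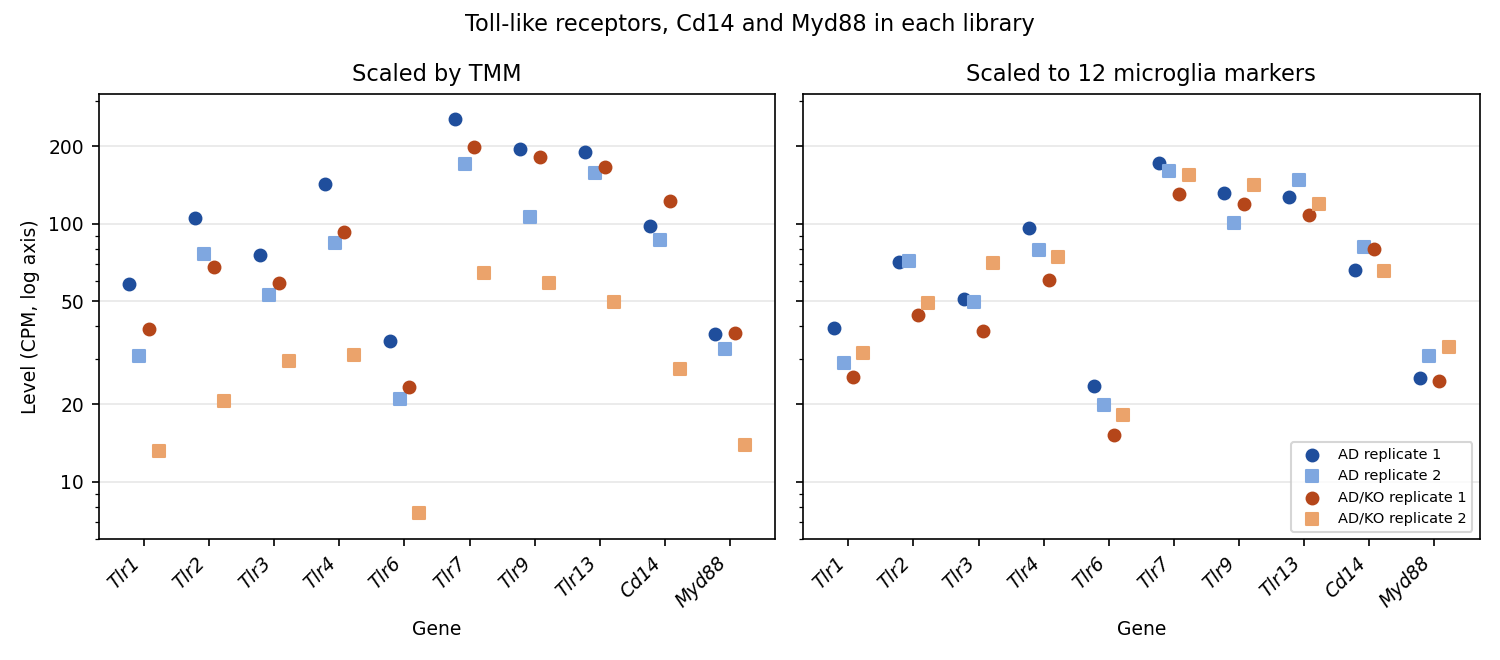
Level of each of the 10 genes in each library in CPM (log axis), scaled by TMM on the left and to 12 microglia marker genes on the right; each point is 1 library, circles are replicate 1, squares are replicate 2, blue is AD and orange is AD/KO. On the left AD/KO replicate 2 is the lowest point of all 10 genes; on the right the highest and lowest libraries of a gene differ by 1.24-fold to 1.83-fold.

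Tlr2 (gene ID 24088, chromosome 3, 83836272 to 83841824) pairs with Tlr1 or Tlr6 to recognise lipopeptides. Its level was 106 and 76.1 CPM in AD replicates 1 and 2, and 68.1 and 20.6 CPM in AD/KO replicates 1 and 2. Both libraries labelled AD/KO were therefore below both AD libraries, with the upper AD/KO value close to the lower AD value. The means were 90.9 ± 21.0 CPM (SD, n = 2) and 44.4 ± 33.6 CPM (SD, n = 2), and the fitted log2 difference was −1.04 (SE 0.62, adjusted p = 0.680 from edgeR).

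Tlr1 (gene ID 21897, chromosome 5, 64924680 to 64933600), the partner for triacylated lipopeptides, stood at 58.6 and 30.7 CPM in AD and at 39.2 and 13.1 CPM in AD/KO. Tlr6 (gene ID 21899, chromosome 5, 64953092 to 64970942), the partner for diacylated ones, stood at 35.0 and 21.0 CPM in AD and at 23.3 and 7.60 CPM in AD/KO. For both genes the groups overlapped, since AD/KO replicate 1 lay between the AD libraries. The log2 fold changes were −0.77 (SE 0.63) for Tlr1 and −0.86 (SE 0.63) for Tlr6. These neighbouring genes are close copies, and their counts are uncertain for that reason. The transcripts were 88.8% identical over 1328 aligned bases. Within the coding sequences a run of 229 bases was identical, at bases 1468 to 1696 of 2385 in Tlr1 and 1507 to 1735 of 2418 in Tlr6. Of all windows of 100 bases in the Tlr1 coding sequence, 11.3% also occurred unchanged in Tlr6, so a read from such a window cannot be assigned to either gene. The settings for reads that match several places are not given in the sources used here. The run is printed with 20 bases on each side, on the coding strand (minus strand of GRCm38, chr5:64925517-64925785 for Tlr1 and chr5:64953808-64954076 for Tlr6), with the 2 bases that differ in capitals.
Tlr1: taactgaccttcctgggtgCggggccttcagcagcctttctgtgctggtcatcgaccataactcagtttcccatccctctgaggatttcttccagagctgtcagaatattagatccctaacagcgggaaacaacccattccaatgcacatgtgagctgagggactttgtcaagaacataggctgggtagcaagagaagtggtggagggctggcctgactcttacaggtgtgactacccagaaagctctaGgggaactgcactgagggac
Tlr6: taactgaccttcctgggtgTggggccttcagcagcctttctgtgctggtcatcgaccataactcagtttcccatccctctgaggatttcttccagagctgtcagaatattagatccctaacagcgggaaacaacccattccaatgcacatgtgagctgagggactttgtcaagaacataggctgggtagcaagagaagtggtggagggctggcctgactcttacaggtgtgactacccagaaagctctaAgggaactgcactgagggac
Tlr1 also shared a stretch of at least 100 bases at 95% identity or more with transcripts of 9 other genes.

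Tlr4 (gene ID 21898, chromosome 4, 66827551 to 66846581) is the lipopolysaccharide receptor. It stood at 143 and 84.3 CPM in the AD libraries and at 92.7 and 31.0 CPM in those labelled AD/KO. The first AD/KO library again lay inside the AD range and the second well below it, and the log2 fold change was −0.88 (SE 0.61). Its co-receptor Cd14 (gene ID 12475, chromosome 18, 36725064 to 36726815) went another way, with 98.4 and 86.5 CPM in AD and 122 and 27.3 CPM in AD/KO. AD/KO replicate 1 was thus the highest and AD/KO replicate 2 the lowest of the 4 libraries for Cd14. The spread within AD/KO (74.8 ± 67.2 CPM, SD, n = 2) was larger than the difference from AD (92.5 ± 8.40 CPM, SD, n = 2), and the log2 fold change was −0.31 (SE 0.72).

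Among the endosomal receptors, Tlr7 (gene ID 170743, chromosome X, 167303380 to 167330574), a sensor of single-stranded RNA, had the most reads of the 10 genes. Its level was 255 and 170 CPM in AD and 199 and 64.6 CPM in AD/KO, and the fitted log2 difference was −0.69 (SE 0.62). Tlr13 (gene ID 279572, chromosome X, 106143275 to 106160493), a sensor of bacterial ribosomal RNA, was at 189 and 158 CPM in AD and at 166 and 49.7 CPM in AD/KO, and the fitted log2 difference was also  −0.69 (SE 0.62). For both X-linked genes AD/KO replicate 1 lay between the AD libraries and AD/KO replicate 2 was lowest.

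Tlr9 (gene ID 81897, chromosome 9, 106222598 to 106226876), a sensor of DNA with unmethylated CpG, stood at 195 and 107 CPM in AD and at 182 and 59.0 CPM in AD/KO. Its log2 fold change was the closest to 0 of the 8 receptors, at −0.32 (SE 0.64), and turned to 0.18 without AD replicate 1. Tlr3 (gene ID 142980, chromosome 8, 45395665 to 45411075), a sensor of duplex RNA, was at 75.6 and 52.9 CPM in AD and at 58.9 and 29.4 CPM in AD/KO, and the fitted log2 difference was −0.54 (SE 0.44). Under TMM, Tlr3 had the narrowest range over the libraries of the 10 genes, with the highest 2.57 times the lowest, against 5.14 times for Tlr2. Scaled to the microglia markers, Tlr3 had the widest range of the 10, at 1.83 times, against 1.61 times for Tlr2. An antisense gene on the other strand, Gm45542, overlaps 7.32% of the Tlr3 exons.

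The adaptor Myd88 (gene ID 17874, chromosome 9, 119335934 to 119340018) was at 37.4 and 32.7 CPM in AD and at 37.6 and 13.9 CPM in AD/KO. AD/KO replicate 1 was thus about level with AD replicate 1, and the log2 fold change was −0.44 (SE 0.53). Myd88 overlaps Acaa1a on the opposite strand over 11.3% of its exon bases. Whether the authors counted with strand is not given in the sources used here, so reads of overlapping genes on opposite strands may not have been separated.

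The other 4 mouse Toll-like receptors were examined for comparison. Tlr5, the flagellin receptor, stood at 64.9 and 37.5 CPM in AD and at 52.8 and 16.1 CPM in AD/KO, in the library order of the receptors above. Tlr12, a sensor of profilin from protozoa, stood at 53.9 and 33.1 CPM in AD and at 35.5 and 7.05 CPM in AD/KO. The groups overlapped for both.
Tlr8 (chromosome X, 167241123 to 167264329), a neighbour of Tlr7, had few reads, with 94 and 135 in the AD libraries and 59 and 25 in the AD/KO libraries. Its levels of 6.82 and 8.30 CPM against 3.08 and 1.36 CPM did not overlap, and the log2 fold change was −1.77 (SE 0.59, unadjusted p = 0.0310, adjusted p = 0.680 from edgeR). Tlr11, which also senses profilin, had 22 and 11 reads in AD and 4 and 2 reads in AD/KO, and the fitted log2 difference was −2.77 (SE 0.88, unadjusted p = 0.0261, adjusted p = 0.680 from edgeR). At 2 reads the exact Poisson 95% interval runs from 0.242 to 7.22 reads, for counting error only, so the size of the Tlr11 difference is poorly fixed. Tlr8 was highest in AD replicate 2, the library with the most neutrophil and monocyte marker RNA and with Xist. The part of these in the Tlr8 level was not tested.

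**Figure D2:**
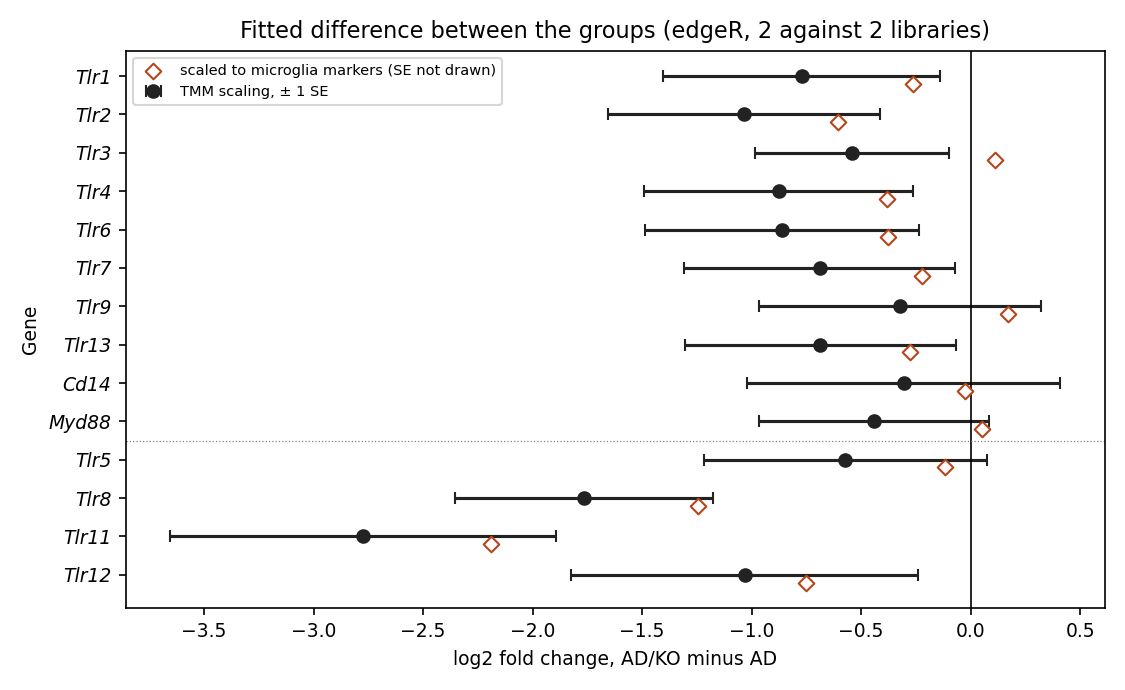
Fitted log2 fold change (AD/KO minus AD, 2 libraries each) of the 10 genes and, below the dotted line, of the 4 other Toll-like receptors; black points with bars are TMM scaling ± 1 SE, open diamonds are scaling to 12 microglia markers. All 14 black points lie below 0, whereas the diamonds of Tlr3, Tlr9 and Myd88 lie above it.

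Levels of different genes were compared per length, as CPM per kb of exon sequence. In AD, Cd14 (56.4 ± 5.12, SD, n = 2) and Tlr7 (53.6 ± 15.1) led, followed by Tlr9 (43.3 ± 17.9) and Tlr13 (42.7 ± 5.48), and the ranges of neighbours in that order overlapped. The AD ranges of Tlr13 and Tlr2 (30.2 ± 6.96), next in order, did not overlap. Those of Tlr9 and Tlr2 did, with Tlr9 at 30.7 in AD replicate 2 and Tlr2 at 35.1 in AD replicate 1. Below Tlr2 came Tlr4 (20.8 ± 7.57), Myd88 (17.9 ± 1.69), Tlr1 (14.3 ± 6.31) and Tlr3 (14.3 ± 3.58). Then came Tlr12 (13.7 ± 4.61), Tlr5 (12.5 ± 4.73) and Tlr6 (7.62 ± 2.69), again with overlapping neighbours. Tlr8 (2.20 ± 0.304) and Tlr11 (0.347 ± 0.199) were lowest, each clear of the gene above. In AD/KO the same 4 genes led, with Tlr9 at 34.7 ± 25.1 and Tlr7 at 33.2 ± 24.0. Myd88 (13.1 ± 8.53) ranked above Tlr4 (11.3 ± 7.99) there, and both orders lie within the spread of the libraries.

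Since the microglia markers differed by library, levels were also scaled to the 12 microglia markers, which contain none of the 10 genes. With this scaling the median over all genes tested moved from −0.05 to 0.82 on the log2 scale, and the fold changes of the receptors are to be read against that shift. The summed level of the 8 receptors, which under TMM was 1056 and 699 CPM in AD and 829 and 275 CPM in AD/KO, became 712 and 658 CPM in AD and 541 and 659 CPM in AD/KO. The highest library was 3.84 times the lowest before and 1.31 times after. Over the 10 genes, the ratio of the highest to the lowest library fell from a median of 4.20 to a median of 1.48. The group difference of the sum was log2 −0.67 with TMM and −0.19 with the microglia scaling, each with p = 0.667 by a two-sided exact permutation test, where 2 against 2 libraries cannot go below 0.333.

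On the microglia scale, 5 of the 10 genes (Tlr2, Tlr4, Tlr6, Tlr7 and Tlr13) had both AD/KO libraries below both AD libraries, where this held for 6.51% of all genes tested, and none had both above (7.49% of all genes). A lower fitted value was found for 7 of 10, against 18.4% of all genes. The scaling multiplied the CPM of AD/KO replicate 2 by 2.40 and that of the other libraries by 0.65 to 0.94. AD/KO replicate 2 also had the highest neuron, astrocyte and oligodendrocyte marker sums. All genes are therefore an unlike baseline here, and no depletion of the 10 genes can be read from these shares. Of the 12 scaling markers, 2 were themselves lower in both AD/KO libraries under TMM. Tlr2 was furthest apart, with 71.3 and 71.6 CPM in AD and 44.5 and 49.3 CPM in the libraries labelled AD/KO. Tlr4 was at 96.3 and 79.3 CPM against 60.6 and 74.3 CPM, and Tlr7 at 172 and 160 CPM against 130 and 155 CPM. In these last cases the lowest AD library exceeded the highest AD/KO library by little. Tlr9 was at 131 and 100.3 CPM in AD and at 119 and 141 CPM in AD/KO, and Cd14 at 66.4 and 81.4 CPM and at 79.9 and 65.4 CPM, with overlap. Fitted on this scale, the log2 fold change was −0.61 for Tlr2, −0.02 for Cd14 and above 0 for Tlr3 (0.11), Tlr9 (0.17) and Myd88 (0.05). Standard errors on this scale ran from 1.18 to 1.19, and 0 of the 10 genes had an unadjusted p under 0.05, where all genes tested gave 9.91%.

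The make-up of the receptor family within a library does not depend on how libraries are scaled. Each receptor was expressed as a percentage of the summed CPM per kb of the 8 receptors. Tlr9 held 20.5% and 17.0% of the sum in AD and 24.4% and 24.0% in AD/KO. Tlr2 held 12.8% and 14.0% in AD and 10.5% and 9.64% in AD/KO. Tlr9 was thus a larger part of the family and Tlr2 a smaller part in both libraries labelled AD/KO, with differences of 5.42 and −3.34 percentage points. The shares of Tlr4 (9.06 ± 0.719% to 7.95 ± 0.0795%, SD, n = 2 each), Tlr6 (3.33 ± 0.223% to 2.93 ± 0.0168%) and Tlr7 (23.7 ± 0.191% to 23.2 ± 0.236%) were also below those of AD without overlap, by smaller amounts. The shares of a library add up to the whole, so a larger Tlr9 share lowers the sum of the others. The lower shares of Tlr4, Tlr6 and Tlr7 therefore cannot be read as separate from the Tlr9 share. Tlr1, Tlr3 and Tlr13 overlapped. For the 5 receptors without overlap the two-sided exact permutation p was 0.333, the smallest this design allows, and 0.533 after Benjamini-Hochberg adjustment over the 8 receptors. Any share without overlap gets that unadjusted value here. For these shares no all-gene background was computed, so the count of 5 out of 8 is not a result about the family. With each library left out in turn, the Tlr9 difference stayed between 3.67 and 7.17 points and the Tlr2 difference between −3.92 and −2.77 points. AD replicate 2, with the highest neutrophil marker sum, had the lowest Tlr9 share and the highest Tlr2 and Tlr13 shares. The part of these cells in the shares of that library was not tested. With AD represented by replicate 1 alone, the difference was 3.67 points for Tlr9 and −2.77 points for Tlr2.

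**Figure D3:**
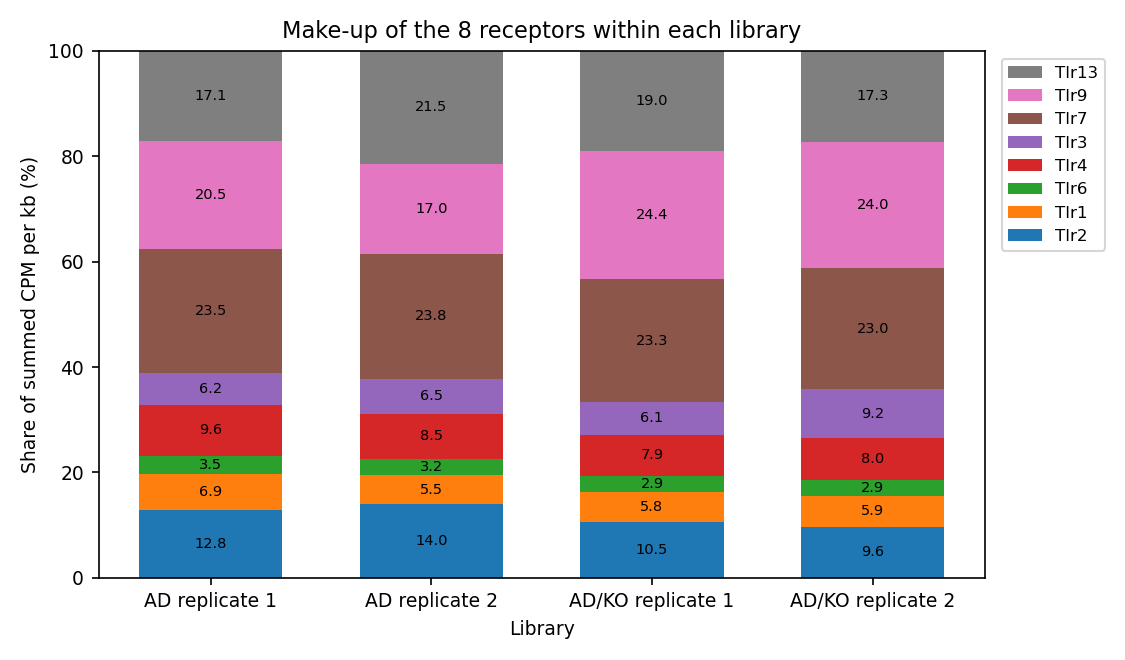
Share of each of the 8 receptors in their summed CPM per kb (%), 1 bar per library. The Tlr9 segment is 24.4% and 24.0% in the AD/KO libraries and 20.5% and 17.0% in the AD libraries; the Tlr2 segment is 10.5% and 9.64% against 12.8% and 14.0%.

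Ratios between partners in a library, chosen after their values were seen, are given without a test. Tlr9 stood at 0.871 and 0.714 times the per-length level of Tlr7 in AD and at 1.04 times in each AD/KO library. Cd14 stood at 1.71 and 2.09 times the level of Tlr2 in AD and at 3.30 and 2.44 times in AD/KO. Relative to Tlr4, Cd14 overlapped between the groups, at 2.30 and 3.42 times in AD and 4.39 and 2.93 times in AD/KO. Tlr1 was 1.97 and 1.72 times Tlr6 in AD and 1.98 and 2.04 times in AD/KO, a ratio that shared reads can shift.

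The rest of the pathway was described from 8 lists with 82 genes, of which 78 had enough reads to be tested. The lists were chosen with earlier results of these data known, so their counts beside the all-gene shares are a description only. Of the 78 genes, 67 were lower and 11 higher in AD/KO by the fitted value, where 52.8% of all genes tested were lower. The median log2 fold change was −0.50, against −0.05 over all genes tested. With the replicate block at least 1 gene of each list passed, where all genes gave 20.2%. In the edgeR fit without the block 0 of the 78 passed. An unadjusted p under 0.05 was found for 10 of them, against 5% of all genes tested. Both AD/KO libraries were below both AD libraries for 29 (21.7% of all genes) and above them for 5 (20.3% of all genes). With the microglia scaling 31 were lower and 47 higher, with a median of 0.17. Over all genes 18.4% were lower and the median was 0.82, an unlike baseline for the reason above.

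Co-receptors and trafficking factors (11 genes, 10 lower) had a median of −0.56. Unc93b1, the chaperone that carries endosomal receptors out of the endoplasmic reticulum, was at 710 and 427 CPM in AD and 727 and 221 CPM in AD/KO. Hsp90b1, a chaperone for receptor folding, had a log2 fold change of −0.47 and Lgmn, a lysosomal protease that can cleave endosomal receptors, −0.29, with overlapping groups in each. Cd180, a receptor homologue on myeloid and B cells, was at 290 and 226 CPM in AD and 173 and 49.5 CPM in AD/KO, without overlap. Cd36, a co-receptor of Tlr2 and Tlr6, was at 5.30 and 8.24 CPM against 2.71 and 1.79 CPM (log2 fold change −1.59).

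Adaptors (5 genes, 4 lower) had a median of −0.65. Tirap, which links Tlr2 and Tlr4 to Myd88, was at 29.6 and 27.2 CPM in AD and 21.5 and 14.4 CPM in AD/KO, without overlap. Ticam1 and Ticam2, the adaptors of the other signalling branch, had log2 fold changes of −0.47 and −0.65, and Pik3ap1, which couples receptors to phosphoinositide 3-kinase, −0.70. Sarm1, which neurons also express strongly, ran the other way with 13.2 and 28.7 CPM in AD and 26.2 and 47.9 CPM in AD/KO. The neuron markers were likewise lowest in AD replicate 1 and highest in AD/KO replicate 2, and their part in the Sarm1 level was not tested.

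Kinases and ubiquitin ligases (18 genes, 15 lower) had a median of −0.38. Irak4, the first kinase recruited by Myd88, was at 36.2 and 29.8 CPM in AD and 26.1 and 13.2 CPM in AD/KO, and Map3k8 at 20.9 and 14.9 CPM and 13.1 and 6.62 CPM, both without overlap. Irak2, Tab2 and Traf3 overlapped, with log2 fold changes of −0.51, −0.40 and −0.17. Transcription factors (10 genes, 8 lower) had a median of −0.46. Irf7, an interferon regulatory factor downstream of Tlr7 and Tlr9, was at 16.5 and 10.3 CPM in AD and 8.03 and 6.78 CPM in AD/KO. Creb1 was also without overlap, at −0.64. Irf8, Irf5 and Nfkb1 overlapped, at −0.65, −0.50 and −0.43. Negative regulators (13 genes, 10 lower) had a median of −0.18, the closest to 0 of the 8 lists. Irak3, an inactive kinase that restrains the pathway, was at 9.58 and 14.5 CPM in AD and 6.67 and 3.09 CPM in AD/KO, whereas Tollip was slightly higher in both AD/KO libraries (69.5 ± 6.29 CPM against 62.0 ± 0.499 CPM, SD, n = 2 each). Rnf216, Cyld and Otulin had log2 fold changes of −0.31, −0.14 and −0.49.

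Interleukin receptors that use Myd88 (6 genes, 6 lower) had a median of −1.12. Il1rl1, the receptor of interleukin 33, was at 19.8 and 18.4 CPM in AD and 10.7 and 4.50 CPM in AD/KO. Il18rap was at 8.42 and 25.6 CPM in AD and 4.38 and 4.99 CPM in AD/KO, highest in the AD library with the neutrophil and monocyte markers, whose part was not tested. Il1rl2 and Il1rap overlapped, at −0.73 and −0.06.

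The list of genes commonly induced through the receptors had 11 of its 15 genes tested, with 10 lower and a median of −1.16. Of the 11, 7 had both AD/KO libraries below both AD libraries, against 21.7% of all genes tested, and 6 had an unadjusted p under 0.05, against 5%. Since the list was chosen with earlier results of these data known, these counts describe it and are no independent support. Tnf stood at 7.98 and 9.90 CPM in AD and at 2.29 and 0.977 CPM in AD/KO (log2 fold change −2.44). Ccl4, a chemokine, was at 13.9 and 13.8 CPM in AD and at 3.49 and 1.19 CPM in AD/KO (−2.55). In both genes each AD/KO library was far below the AD libraries, AD/KO replicate 1 included. Il1b was at 17.9 and 22.4 CPM against 6.78 and 8.30 CPM, and Nfkbiz, an NF-kB cofactor, at 78.4 and 66.5 CPM against 40.6 and 24.0 CPM. Il1a overlapped, at −1.08. In the fit without a replicate block none of these passed the test over all genes (edgeR adjusted p = 0.680 for each). By DESeq2, Ccl4 (adjusted p = 0.0436) and Ccl3 (adjusted p = 0.0385), a related chemokine named after its value was seen, passed. Monocyte and border-associated macrophage marker sums were also lower in both AD/KO libraries, and their part in this list was not tested. The difference between this list and the receptors was not tested. On the microglia scale the list had 8 of 11 genes lower, with a median of −0.46, and Tnf and Ccl4 were at −1.94 and −2.12.

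**Figure D4:**
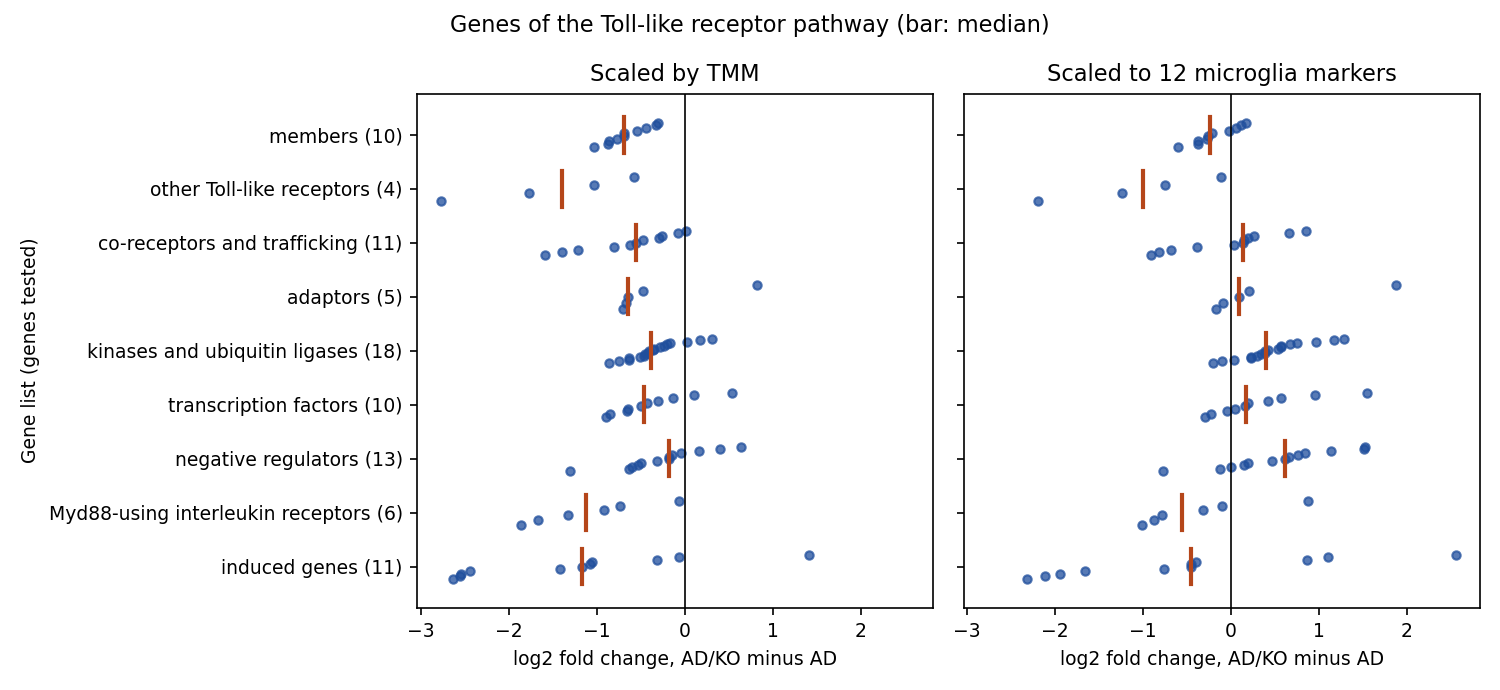
Fitted log2 fold change (AD/KO minus AD) of each tested gene in the 10-gene set (members) and the 8 pathway lists, scaled by TMM on the left and to 12 microglia markers on the right; a point is 1 gene and the bar is the list's median. All medians lie below 0 on the left; on the right those of the co-receptors, adaptors, kinases, transcription factors and negative regulators lie above 0.

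The profile of the median gene of the set over the 4 libraries, centred on its mean, was 0.63 and 0.29 in AD and 0.28 and −1.20 in AD/KO on the log2 scale. The 4 protein-coding genes closest to it among 11801 were Zfp935, Man2b1, Ifnar2 and Was, with root mean square differences of 0.028 to 0.046 on the log2 scale. Man2b1 is a lysosomal mannosidase, Ifnar2 a chain of the type I interferon receptor and Was an actin regulator of blood cells. Of the 11801 genes, 376 (3.19%) were at least as close as the median gene of the set itself (0.18), so the profile was shared by many genes, and 4 libraries say little on likeness.

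The 250 bases before RefSeq start sites were searched for 4 motifs on both strands. The search covered 9 RefSeq promoters (GRCm38.p6) of 7 of the 10 genes. Tlr4, Tlr7 and Cd14 had no promoter in that set and were not searched. A link between the motifs and the library order was not tested. The core GAGGAAG of PU.1, the factor that defines the myeloid lineage, was present in the windows of Tlr1, Tlr9 and Tlr13, and in 10.6% of all 32851 promoters. The IRF pair motif (GAAA repeated after 2 bases) was present in those of Tlr6 and Myd88 (2.98% of all), the AP-1 motif TGANTCA in that of Tlr9 (6.75%) and the NF-kB motif in those of Tlr2 and Tlr3 (7.25%). Some start sites lie inside the gene coordinates given above, so the matches of Tlr1, Tlr2, Tlr3 and Tlr6 fall within those coordinates, and those of Tlr9, Tlr13 and Myd88 before them. No motif was found in all of them. The windows of 60 bases with the PU.1 core before Tlr9 and Tlr13 are shown as examples, with the core in capitals and on the strand of the gene (chr9:106222460-106222519 plus and chrX:106143166-106143225 plus).
Tlr9: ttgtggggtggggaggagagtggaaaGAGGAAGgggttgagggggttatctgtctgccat
Tlr13: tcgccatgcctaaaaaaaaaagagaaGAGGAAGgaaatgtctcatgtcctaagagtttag
A match describes the letters in the window and says nothing of binding.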

How the data were processed

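The authors deposited 1 table per library of raw read counts per gene symbol, not normalized. Per the submitters' processing notes, reads were handled with HISAT2, SAMtools and featureCounts (Subread) on mm10; settings for strand and for reads that match several places are not given in the sources used here. Per the labels' protocols, ribosomal RNA was depleted and libraries were stranded. Each deposited file had 11 broken lines, which held no count and were left out. All 49993 symbols matched RefSeq (GRCm38.p6), used for coordinates and promoters; exon lengths and transcripts came from GENCODE M21 (GRCm38).

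Counts were tested with edgeR 4.0.16 (R 4.3.3) on all 4 libraries without covariates: filterByExpr (minimum count 10, minimum total 15), TMM scaling, quasi-likelihood F-test, two-sided, Benjamini-Hochberg over all genes tested, threshold 0.05. The SE is the fold change divided by the square root of F. Alternatives were DESeq2 1.42.0, its size factors, scaling to 12 microglia markers, other filters, a replicate block and each library left out. The fit was also run on simulated counts with known changes, and the outcome is not given here. Transcripts were compared with BLAST 2.17.0. The members, the 8 pathway lists and the marker lists were chosen with earlier results of these data known. Named were the 10 members, the other receptors, Ociad1, Xist, from each list the 3 genes with the highest mean CPM and the 2 with the smallest p, and the 5 genes closest in profile, of which 1 is not reported here. Counting intervals cover counting error only, since reads carry no molecular identifiers. No column was left without a sample.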

Additional observations from a re-analysis of the deposited data

How the results depend on the processing

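Alternatives gave 204 values, of which 171 led to the reported call and direction or, with no test, lay within the replicate spread. Counts were instead judged by their ratio to the reported count. The rule is loose, since only the replicate block called any member and the spread over 2 libraries is wide. The member median of −0.10 without AD/KO replicate 2, against −0.69 with all libraries, was among the 171. The number of genes past the threshold, 0 by edgeR (1072 at an unadjusted p under 0.05), was 90 with DESeq2, 4333 with the replicate block, and 0 to 524 with a library left out (48 without AD replicate 1, 524 without AD replicate 2); members called stayed at 0 in these fits except with the replicate block. Replicate numbers are shared by the groups, but the labels do not say that they pair animals; deviations of same-numbered libraries correlated at 0.72 across genes. With the block 4 members were called (Tlr1 −0.89, Tlr2 −1.25, Tlr4 −1.03 and Tlr6 −1.01), as were 7 of 11 induced genes, all of them lower. Over all genes 20.2% were called in either direction and 6.79% were called lower. The median of the members ran from −1.71 to −0.10 with a library left out and from −0.88 to −0.24 otherwise, and the log2 ratio of summed receptors from −1.67 to −0.082 (−0.19 with the microglia scaling). Members without overlap numbered 1, 5 with the microglia scaling, and 1 to 10 with a library left out (added after seeing the data): 8 without AD replicate 2 and 10 without AD/KO replicate 1, where 84.2% and 87.5% of all genes were without overlap. With the microglia scaling Tlr3 (0.11), Tlr9 (0.17) and Myd88 (0.050) changed direction, as did the medians of co-receptors (0.14), adaptors (0.087), kinases (0.40), transcription factors (0.17) and negative regulators (0.61). Leaving out libraries turned Tlr9 to between −1.30 and 0.28, Cd14 to between −1.71 and 0.41, Myd88 to between −1.28 and 0.11, and the shares of Tlr1 to between −0.98 and 0.43, Tlr3 to between −0.24 and 2.89 and Tlr13 to between −3.37 and 1.09 points. The cause was not tested. With 2 libraries a group, the fit without a block can miss differences within the range between AD/KO replicates 1 and 2. The smallest detectable difference was not computed.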
